A study of Mus musculus with 25 samples.

Results

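Messenger RNA of the gastrocnemius, the large calf muscle, was compared between the 8 muscles with the most and the 8 with the least MHC class II transcript among 25 muscles of a single series. The members were chosen by measured values, since all 25 muscles were ranked on the mean log2 CPM (reads scaled to a common library size) of Cd74, H2-Aa and H2-Ab1, and the 2 ends of that ranking were set against each other across the remaining 8826 genes. Each muscle came from 1 male mouse of the SAMP8 line, which ages early, and gave 1 library. Of these mice, 11 received vehicle (corn oil, control) and 14 received thymol, a terpenoid of thyme and oregano, by gavage at 20 mg per kg body weight on each dosing day for 3 months, starting when the animals were 8 months old. All mice shared the SAMP8 background, so no mouse of a normally ageing strain stands beside them. The 8 highest muscles were 4 control and 4 thymol muscles, and the 8 lowest were 3 control and 5 thymol muscles. The remaining 9 muscles lay between. Muscles are named below by treatment and mouse number, and treatment was a covariate in each comparison of the highest with the lowest muscles.

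MHC class II molecules are made of an alpha and a beta chain, present peptides taken up from outside the cell to helper T cells, and are carried mainly by macrophages, dendritic cells and B cells. Cd74 encodes the invariant chain that guides them through the cell, and H2-Aa and H2-Ab1 encode the chains of the I-A molecule. Muscle fibres make little of either in health, and the resident leukocytes of muscle are mostly macrophages that sit in the connective tissue between the fibres. Interferon gamma raises both classes of MHC genes through the transactivator CIITA and other factors.

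The data carry the label of leukocyte content only in part. Genes found in most leukocytes were represented by 10 tested members of a list of 34, all 10 with a positive difference between the highest and the lowest muscles. For macrophages and monocytes 22 of 38 listed genes were tested, again all with a positive difference. Several defining markers were not among the genes analysed here, namely Ptprc (CD45), Adgre1 (F4/80), Cd3e, Cd79a, Igkc and S100a8. None of the 25 listed genes of T and NK cells and none of the 20 of B and plasma cells was in the table, so lymphocytes could not be assessed. The 2 sets of muscles are therefore called MHC class II-high and MHC class II-low below.

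Promoter sequence is shown for 3 genes to set the ranking transcripts beside genes that followed them: H2-Aa, which entered the ranking, H2-Eb1, the beta chain of the sister molecule I-E, and B2m, the light chain of MHC class I. Each run covers the 150 bases upstream of the start of transcription in RefSeq (GRCm38.p6), read in the direction of the gene. Capitals mark the Y box (CTGATTGG on either strand), the element bound by NF-Y in MHC class II promoters, in H2-Aa and H2-Eb1, and the core of the interferon-stimulated response element (GAAANNGAA on either strand) in B2m.
H2-Aa, chr17:34287824-34287973, minus strand: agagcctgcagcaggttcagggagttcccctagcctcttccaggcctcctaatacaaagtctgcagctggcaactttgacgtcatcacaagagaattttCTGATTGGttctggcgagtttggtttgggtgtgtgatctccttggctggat
H2-Eb1, chr17:34305717-34305866, plus strand: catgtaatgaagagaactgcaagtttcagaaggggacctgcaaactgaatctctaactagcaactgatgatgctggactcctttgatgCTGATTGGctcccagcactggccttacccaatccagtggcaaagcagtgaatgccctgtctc
B2m, chr2:122147537-122147686, plus strand: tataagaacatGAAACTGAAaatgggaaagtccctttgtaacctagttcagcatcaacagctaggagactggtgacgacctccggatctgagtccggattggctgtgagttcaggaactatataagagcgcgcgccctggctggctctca
The Y box began 51 bases before the start in H2-Aa and 62 bases before it in H2-Eb1, and the B2m match began 139 bases before it. Over the 250 upstream bases of the 7048 tested genes with a promoter entry, 6.07% held a Y box and 7.14% held the interferon element core. Of the genes called higher below, 18 had a promoter entry. Among these, 2 held a Y box (Psmb9 and H2-Eb1) and 2 the interferon element core (Cybb and B2m), so most held neither. Of 4 genes called lower with an entry, 0 held either. A match of these letters is a description of the sequence and not evidence of binding. H2-Aa and H2-Eb1 lie near each other on chromosome 17 of GRCm38 (GENCODE M21), at 34282744 to 34287823 and 34305867 to 34316674. B2m lies on chromosome 2 at 122147686 to 122153083 and overlaps Patl2 on the opposite strand. Whether the counting used strand is not given in the sources used here, so reads of such pairs might not be told apart. Of the 27 genes called below, 26 had a position under their symbol in GENCODE M21, and 10 of these overlap a gene on the opposite strand. The share of such overlaps over all tested genes was not counted, so this number cannot be read as high or low.

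The mean of the 3 ranking transcripts ran from 4.52 to 6.06 log2 CPM in the MHC class II-high muscles (median 4.94) and from 3.25 to 4.06 in the MHC class II-low muscles (median 3.67). These values chose the muscles, so their separation is a description. Control 23 was the last muscle inside the high set at 4.52, and thymol 11 was just outside at 4.49. At the other end thymol 6 was the last inside at 4.06, and thymol 26 was just outside at 4.10. Both edges thus ran through a continuous series of values. Control 35 stood apart at the top with 6.06, followed by control 18 with 5.22. Cd74 ranged from 4.65 to 6.08 log2 CPM in the high and from 2.99 to 4.31 in the low muscles. H2-Aa ranged from 4.82 to 6.48 and from 3.76 to 4.62, and H2-Ab1 from 3.77 to 5.62 and from 2.07 to 3.59. The transcripts were read from 21 to 730 reads per muscle, so counting error is largest for H2-Ab1 in the low muscles.

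**Figure D1:**
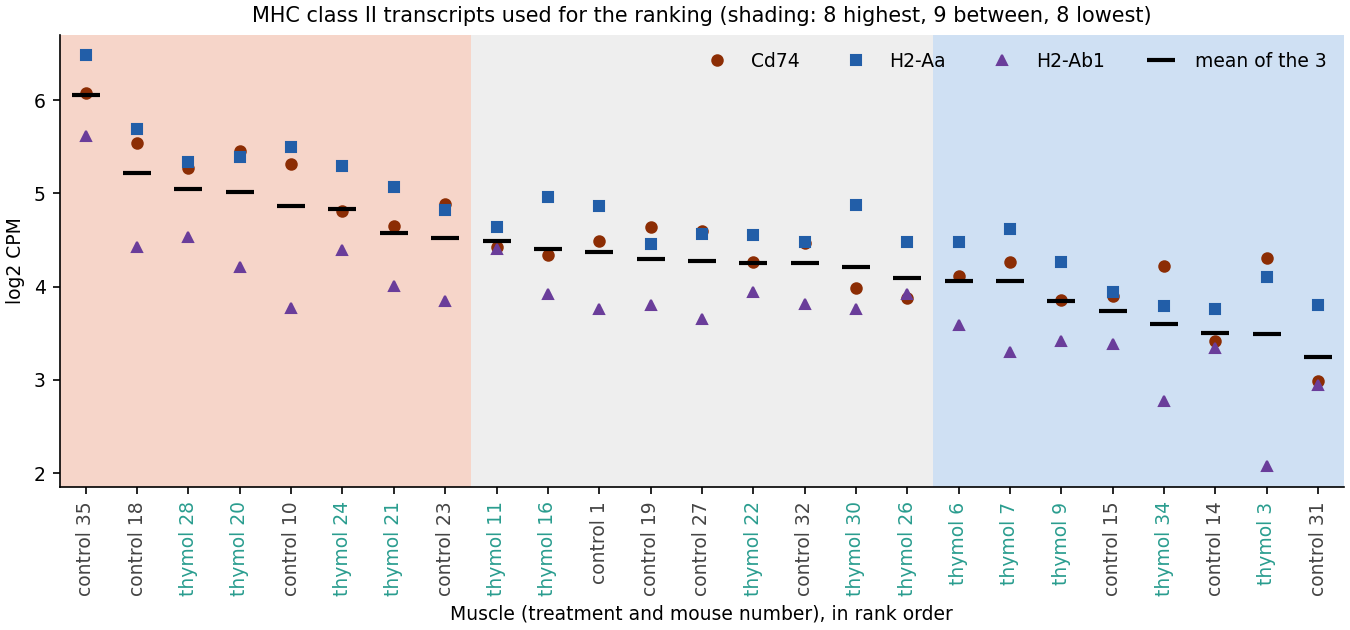
Log2 CPM of Cd74, H2-Aa and H2-Ab1 and their mean (black bars) in each of 25 muscles, in rank order, with the 8 highest, 9 intermediate and 8 lowest muscles shaded from left to right and names coloured by treatment. Values fell in small steps from control 18 (5.22) to control 31 (3.25), and control 35 (6.06) lay above all others.

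Control and thymol muscles overlapped in the ranking transcripts. Cd74 ran from 2.99 to 6.08 log2 CPM in control and from 3.86 to 5.45 in thymol muscles, H2-Aa from 3.76 to 6.48 and from 3.79 to 5.39, and H2-Ab1 from 2.94 to 5.62 and from 2.07 to 4.53. The 11 control muscles had Cd74 at 4.58 ± 0.91 log2 CPM (mean ± SD) and the 14 thymol muscles at 4.42 ± 0.48. The thymol minus control difference was -0.16 for Cd74 (SE 0.25), -0.06 for H2-Aa (SE 0.24) and -0.12 for H2-Ab1 (SE 0.25), all within the spread between mice (limma, Benjamini-Hochberg adjusted p = 1.0 for each). The SD of Cd74 and of H2-Aa was larger among control than among thymol muscles, and control 35 held the highest value of each of the 3 transcripts.

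Across the other 8826 genes, 27 differed between the MHC class II-high and MHC class II-low muscles at an adjusted p under 0.05 (limma with treatment as covariate, Benjamini-Hochberg over all tested genes). Of all tested genes, 22 (0.249%) were higher and 5 (0.0567%) were lower in the high muscles. Without adjustment, 570 genes (6.46%) were higher and 414 (4.69%) lower at p under 0.05. The median difference over all genes was -0.0022 log2, and 49.3% of genes had a positive difference. Of the 22 higher genes 13 were members of a list and 9 were in no list. Among the 13 were 3 of 22 tested macrophage genes, 2 of 10 leukocyte, 2 of 12 MHC class I and 2 of 29 fibroblast genes. The rest were 1 of 8 MHC class II, 1 of 20 interferon, 1 of 9 complement and 1 of 22 cytokine genes. Over all tested genes the share called higher was 0.249%. The differences of the 22 ranged from 1.34-fold for Tshz2 to 7.27-fold for Ccl8. In bulk muscle more cells of a type and more RNA per cell cannot be told apart. Values at few reads are compressed, since the deposited log2 CPM carries a small added count.

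Ccl8, a chemokine that draws monocytes and is made by tissue macrophages, had the largest difference of the 27 genes. Its level was 2.15 to 6.30 log2 CPM (median 4.05) in the MHC class II-high and 0.23 to 3.51 (median 0.99) in the MHC class II-low muscles. The difference was 2.86 log2 (SE 0.49, adjusted p = 0.024, limma), and 6 of 8 high muscles exceeded every low muscle. Thymol 6 was the low muscle with the highest Ccl8, at 3.51, where the next was 1.60. Its reads ran from only 7 to 432 per muscle. Ccl8 lies on chromosome 11 at 82115185 to 82116799. Of 22 tested cytokines, chemokines and their receptors, 16 had a positive difference with a median of 0.22, and Ccl8 was the only one called.

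The complement component C1q is made chiefly by tissue macrophages, and its 3 chains lie side by side on chromosome 4. C1qa was at 4.66 to 6.41 (median 5.55) in the high and 3.81 to 5.12 (median 4.31) in the low muscles, a 2.19-fold difference (log2 1.13, SE 0.20, adjusted p = 0.026, limma). C1qb and C1qc differed by 1.0 (SE 0.29) and 0.99 log2 (SE 0.25) without passing the adjusted threshold (adjusted p = 0.15 and 0.093, limma). C3, the central complement protein that is also made by fibroblasts, was 1.91-fold higher (adjusted p = 0.037, limma), at 5.30 to 6.95 in the high and 4.97 to 5.93 in the low muscles. In the complement list 8 of 9 genes had a positive difference with a median of 0.54 log2, 7 passed p under 0.05 without adjustment and C3 alone passed after it. Cd59a, a brake on the terminal complement complex, was the exception at -0.13.

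Genes of macrophages and of leukocytes at large followed the same pattern. Laptm5, a lysosomal membrane protein of blood cells, was at 3.10 to 4.80 in the high and 1.71 to 3.47 in the low muscles, 2.52-fold higher (SE 0.26 log2, adjusted p = 0.037, limma). Cybb, the catalytic subunit of the phagocyte NADPH oxidase, was 2.67-fold higher (log2 1.42, SE 0.29, adjusted p = 0.037), at 1.90 to 4.73 against 1.39 to 2.75. For both genes 7 of 8 high muscles exceeded every low muscle. Lyz2, the lysozyme of myeloid cells, was 2.13-fold higher (SE 0.22 log2, adjusted p = 0.037) at 5.0 to 6.87 against 4.18 to 5.38, but of all 31-base words at the ends of its transcripts 36.2% also occur in other genes, mostly Lyz1. Csf1r, the receptor for the macrophage growth factor CSF1, was 1.96-fold higher (SE 0.21 log2, adjusted p = 0.044). Among the macrophage genes that missed the threshold, Mrc1 and Cd163, scavenger receptors of resident macrophages, differed by 0.91 and 0.81 log2 (adjusted p = 0.13 and 0.19), and the lysosomal glycoprotein Cd68 by 1.07 (adjusted p = 0.25).

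The 22 macrophage and monocyte genes had a median difference of 0.94 log2, against -0.0022 over all genes. Of these genes 3 passed the adjusted threshold, all higher, and 18 passed p under 0.05 without adjustment, all higher. Their mean level ran from 3.98 to 5.72 log2 CPM in the high and from 3.74 to 4.63 in the low muscles, so that 5 of 8 high muscles lay above every low muscle and the sets overlapped. Control 18 held the highest value of 5.72, although control 35 ranked first on the class II transcripts. The 10 genes shared by most leukocytes had a median of 0.91 log2, 2 of them higher after adjustment and 7 before. The 4 tested genes of the neutrophil and mast cell list were mast cell proteases (Tpsb2, Cpa3 and Mcpt4) and the metalloproteinase Mmp9, with a median of 1.02 and none past the adjusted threshold. Tpsb2 was the nearest, at 1.11 log2 (SE 0.26, adjusted p = 0.076). Only 2 of 14 listed dendritic cell genes were tested, so these cells were hardly assessed. The 2 had a median of 0.15, with Irf8, a transcription factor of dendritic cells and monocytes, at 0.27 (adjusted p = 0.73, limma).

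**Figure D2:**
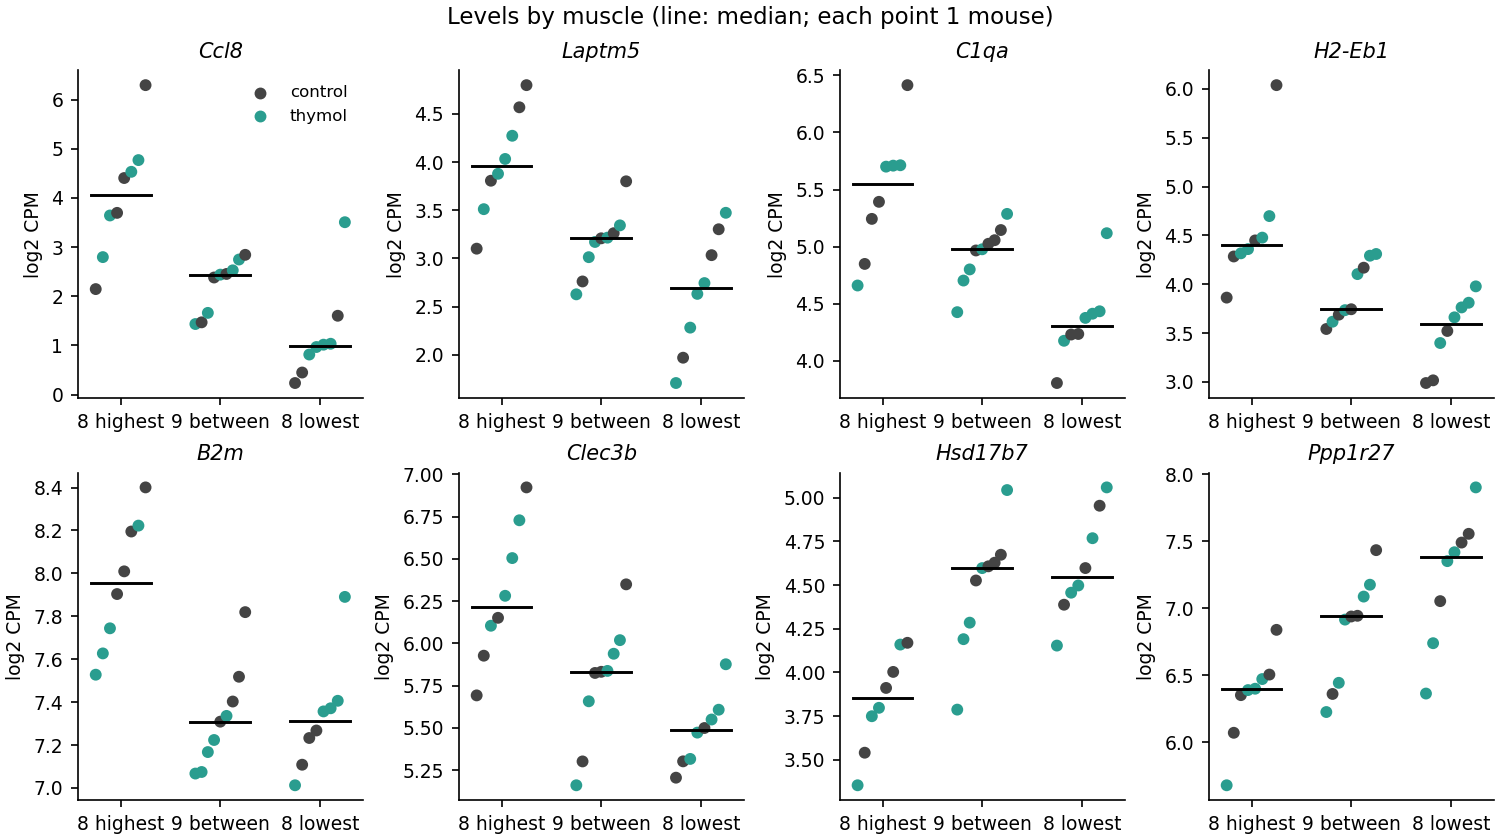
Log2 CPM of 8 of the 27 called genes in the 8 MHC class II-high, 9 intermediate and 8 MHC class II-low muscles, 1 point per mouse coloured by treatment with the median as a line. Ccl8, Laptm5, C1qa, H2-Eb1, B2m and Clec3b had higher and Hsd17b7 and Ppp1r27 lower medians in the high than in the low muscles, and in each panel these sets overlapped.

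Antigen presentation genes outside the ranking differed unevenly. H2-Eb1 was 2.09-fold higher (log2 1.06, SE 0.23, adjusted p = 0.049, limma), at 3.86 to 6.04 in the high and 2.99 to 3.98 in the low muscles. Its highest value, 6.04, was in control 35 and the next was 4.70. The other class II pathway genes did not pass: the peptide exchange factor subunit H2-DMa differed by 0.27 log2 (SE 0.24, adjusted p = 0.72) and the protease Ctss, which trims the invariant chain, by 0.86 (SE 0.34, adjusted p = 0.34). All 8 tested members of that list had a positive difference (7 under median centring or quantile normalization), with a median of 0.35, and 3 passed before adjustment. In control muscles alone 4 of the 8 were positive and the median was 0.12. In thymol muscles alone the 8 were positive with a median of 0.68. The difference between treatments was not tested for this list. With the fibroblast mean as a covariate the median was 0.10.

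In the MHC class I pathway 2 of 12 genes were higher after adjustment and 7 before, with a list median of 0.39 log2. B2m was at 7.53 to 8.40 in the high and 7.01 to 7.89 in the low muscles, 1.53-fold higher (SE 0.13 log2, adjusted p = 0.043, limma) on 903 to 2977 reads. Psmb9, an immunoproteasome subunit that shapes class I peptides, was 1.97-fold higher (SE 0.20 log2, adjusted p = 0.038), and its gene overlaps Tap1 on the opposite strand. The heavy chains H2-K1 and H2-D1 differed by 1.03 and 0.36 log2 (adjusted p = 0.093 and 0.48). Fitted by treatment, H2-K1 differed by 1.88 log2 among control muscles (SE 0.24, adjusted p = 0.026, limma) and by 0.38 among thymol muscles (SE 0.26, adjusted p = 0.82). The interaction with treatment did not pass the adjusted threshold for H2-K1 or any other gene (smallest adjusted p = 0.78, limma), so a treatment dependence is not shown. Near-identical class I genes make both heavy chains uncertain, since 26.4% and 34.5% of their transcript-end words recur elsewhere. The mean of the 12 class I genes was above every MHC class II-low muscle in all 8 high muscles, at 4.31 to 4.67 against 3.70 to 4.29 log2 CPM.

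All 20 tested genes of the interferon response had a positive difference, with a median of 0.57 log2. Of these, 1 passed the adjusted threshold and 11 passed p under 0.05 before adjustment. The gene that passed was Ifitm3, which blocks virus entry at endosomes (1.49-fold, SE 0.12 log2, adjusted p = 0.037, limma), with 28.3% of its transcript-end words shared with other loci. Without control 18 and control 35, 17 of the 20 had a positive difference.

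Genes listed as TNF and NF-kB targets had no common direction, whereas immediate-early genes, kept as a separate list, were mostly lower. Over 17 tested TNF and NF-kB target genes the median difference was 0.02 log2 (-0.0012 under median centring and -0.03 under quantile normalization), 9 were positive and 8 negative, none passed the adjusted threshold, and 1 was higher and 4 lower at p under 0.05 without adjustment. Nfkb1, the p105 precursor of the p50 subunit, differed by 0.02 log2 (SE 0.13, adjusted p = 0.98, limma), at 2.96 to 3.89 in the high and 2.94 to 3.90 in the low muscles. This sign turned to -0.0012 with libraries centred on their medians. Pde4b, a cAMP phosphodiesterase induced by inflammatory stimuli, differed by -0.51 (SE 0.18, adjusted p = 0.25). Of 16 immediate-early genes, transcription factors and phosphatases that respond within minutes to stimulation, 13 had a negative difference, 6 passed p under 0.05 before adjustment, all lower, and the median was -0.31. Nr4a3, an orphan nuclear receptor of that group, was nearest at -1.64 log2 (SE 0.37, adjusted p = 0.059), at -0.28 to 2.17 in the high and 0.91 to 3.26 in the low muscles on 4 to 68 reads.

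Connective tissue genes were also among the 22 higher genes. Clec3b (tetranectin), which mesenchymal cells secrete, was 1.79-fold higher (log2 0.84, SE 0.14, adjusted p = 0.022, limma), at 5.69 to 6.92 in the high and 5.21 to 5.88 in the low muscles. Cygb, a globin of fibroblasts, was 1.57-fold higher (SE 0.14 log2, adjusted p = 0.049). Over 29 fibroblast and matrix genes the median difference was 0.45 log2, 26 were positive, 2 passed the adjusted threshold and 19 passed before adjustment, all higher. Col1a1, the alpha 1 chain of type I collagen, differed by 0.69 log2 (SE 0.33, adjusted p = 0.45), and Pdgfra, the receptor that marks fibro-adipogenic progenitors, by 0.14 (SE 0.14, adjusted p = 0.78). The mean of the list ran from 5.15 to 6.55 log2 CPM in the high and from 5.05 to 5.64 in the low muscles, with control 18 the highest at 6.55. When this mean was added to the model as a covariate, 0 genes were called higher and 1 was called lower in the high muscles (limma). The median of the macrophage list was then 0.33, 20 of its 22 genes stayed positive, and 6 were higher at p under 0.05 before adjustment. That alternative was chosen after seeing the data.

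Slow-fibre genes had negative differences whose size depended on 1 muscle. The mean of the list had a median of 6.90 log2 CPM in the high, 8.12 in the intermediate and 7.45 in the low muscles. It was thus highest in the intermediate muscles and did not fall steadily along the ranking. All 10 tested genes of slow, oxidative fibres had a negative difference, with a median of -1.39 log2, none passed the adjusted threshold, and 9 passed p under 0.05 before adjustment. Myh7, the myosin heavy chain of slow fibres, was at 1.68 to 8.61 (median 7.35) in the high and 5.64 to 10.1 (median 7.95) in the low muscles, a difference of -1.46 (SE 0.73, adjusted p = 0.48, limma). Casq2, the calsequestrin of slow and cardiac muscle, had the smallest p of the list at -0.71 log2 (SE 0.25, adjusted p = 0.27). Thymol 20 held the lowest Myh7, 1.68, where the next high muscle was at 6.62, and without it the list median was -0.77 with 1 gene past the unadjusted threshold. Over all 25 muscles, with the ranking mean as a covariate, the 10 genes again had a negative slope but none passed p under 0.05 before adjustment, and with the library number as a covariate 2 did. Fast-fibre genes had a median of -0.0016 over 13 genes (0.0085 under quantile normalization). With the slow-fibre mean as a covariate, chosen after seeing the data, 28 genes passed the adjusted threshold, 18 of them among the 27. The part of fibre type in the other differences was not tested beyond that fit.

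**Figure D3:**
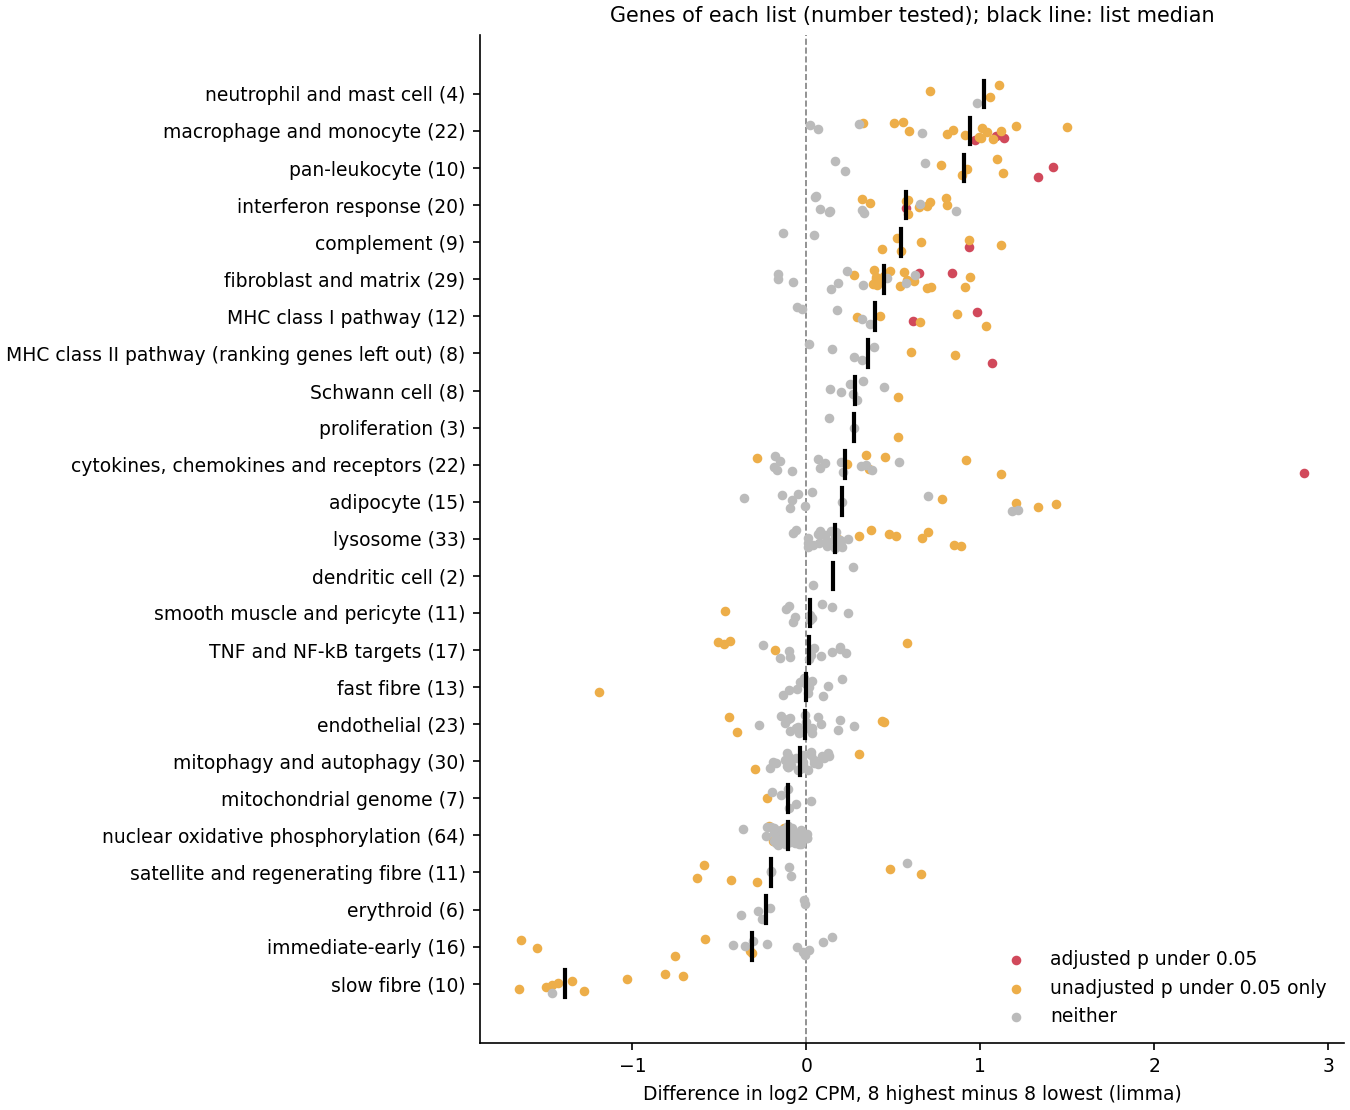
Difference in log2 CPM between the MHC class II-high and MHC class II-low muscles for each tested gene of 25 lists (number of genes in brackets), with list medians as black lines and colour by the limma p. Macrophage (0.94), leukocyte (0.91) and interferon (0.57) medians lay above 0, the TNF and NF-kB median near 0 (0.02, or -0.03 under quantile normalization), and the slow-fibre median lowest (-1.39, or -0.77 without thymol 20).

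Nuclear genes of oxidative phosphorylation had small negative differences, 61 of 64, with a median of -0.11 log2, none past the adjusted threshold and 4 past the unadjusted one. The subunit gene Cox8b differed by -0.21 (SE 0.07, adjusted p = 0.19, limma). Genes of mitophagy and autophagy had a median of -0.04 over 30 genes, none called. Pink1, the kinase that marks damaged mitochondria for removal, was at 7.84 to 8.55 in the high and 8.03 to 8.39 in the low muscles, a difference of -0.05 (SE 0.08, adjusted p = 0.88), and Bnip3, a mitophagy receptor, differed by -0.29 (SE 0.12, adjusted p = 0.36). Lysosomal genes had a positive difference in 31 of 33 cases with a median of 0.17, and none passed the adjusted threshold. The smallest p was that of Grn (progranulin) at 0.67 (SE 0.16, adjusted p = 0.088, limma).

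Markers of other cell types were measured beside these results. Adipocyte genes had a median of 0.21 log2 over 15 genes, 9 positive, 4 past the unadjusted threshold and none called. The median was 0.78 in control muscles alone, 0.04 without control 18 and control 35, 0.11 without thymol 20 and 0.01 with the fibroblast mean as a covariate, and no gene was higher at p under 0.05 before adjustment in the last 3 of these. Over all 25 muscles, with the ranking mean as a covariate, 14 of the 15 had a positive slope and 7 passed p under 0.05 before adjustment. Adipoq (adiponectin) was at 2.88 to 6.07 in the high and 1.44 to 7.06 in the low muscles, and the lipid droplet gene Cidec differed by 1.33 (SE 0.60, adjusted p = 0.42, limma). The summed adipocyte level was 11.3 to 12.2 log2 CPM in the high and 11.2 to 12.6 in the low muscles. With the adipocyte mean as a covariate 13 genes were called, 9 of them among the 27. Erythroid genes were negative in 6 of 6 cases with a median of -0.23 and none past either threshold, with a summed level of 8.38 to 9.04 in the high and 8.27 to 9.69 in the low muscles. The haemoglobin gene Hbb-bs differed by -0.28 (SE 0.20, adjusted p = 0.66). The median of 23 endothelial genes was -0.0059, with Pecam1 (CD31) at 0.03 (SE 0.11, adjusted p = 0.96), Cd34 at 0.45 and Kdr, the VEGF receptor, at -0.40. Schwann cell genes were positive in 8 of 8 cases with a median of 0.28. Fitted by treatment, the median was 1.01 among control and -0.27 among thymol muscles, where 3 of 8 were positive, and this difference was not tested. Of 11 genes of satellite cells and regenerating fibres 8 were negative, among them Sdc4 at -0.59 (adjusted p = 0.085), while Ncam1 was at 0.66 (adjusted p = 0.22). Pax7 was not among the genes analysed here.

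**Figure D4:**
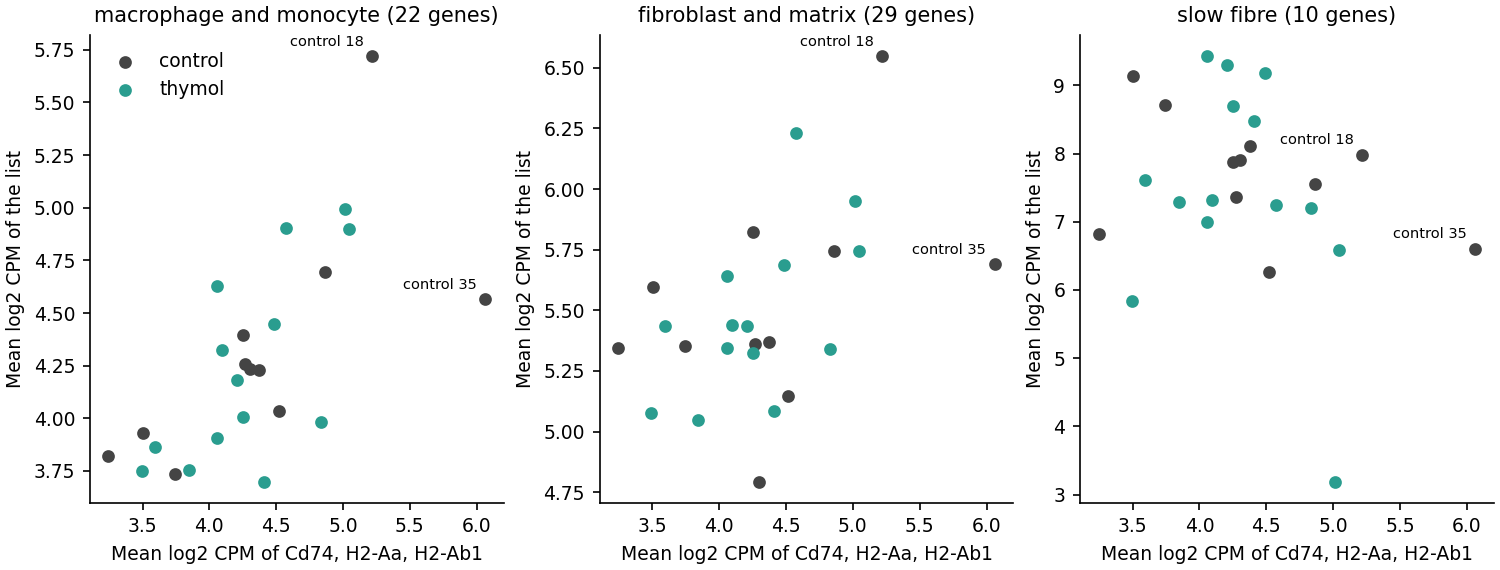
Mean log2 CPM of the macrophage, fibroblast and slow-fibre lists against the mean of the 3 ranking transcripts in 25 muscles, coloured by treatment. Control 18 was highest on the macrophage (5.72) and fibroblast (6.55) lists, control 35 was highest on the ranking transcripts (6.06), and thymol 20 lay far below the others on the slow-fibre list (3.19).

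The other 9 called genes with higher levels were in none of the lists. Tmem176a, a membrane protein of myeloid and other immune cells, had the smallest p of all genes (1.84-fold, SE 0.14 log2, adjusted p = 0.022, limma), at 3.40 to 4.17 in the high and 2.44 to 3.43 in the low muscles. Adap2, a GTPase-activating protein for ARF6, was 2.0-fold higher (SE 0.17 log2, adjusted p = 0.022). Trim12a, a TRIM family gene of chromosome 7 with close relatives such as Trim5, was 1.88-fold higher (SE 0.16 log2, adjusted p = 0.026), and 10.8% of its transcript-end words occur in other genes. Plscr4 (phospholipid scramblase 4) was 1.68-fold higher (SE 0.16 log2, adjusted p = 0.043). Cygb, described above, and the remaining 5 were named after their values were seen. The 5 were Apod, Samhd1, Tshz2, Gdf10 and Gda, at 1.34 to 1.98-fold. Samhd1, a nucleotide phosphohydrolase that restricts viruses in myeloid cells, was at 0.70 log2 (SE 0.14), and Gdf10, a growth factor of mesenchymal progenitors, at 0.98 (SE 0.21).

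Lower in the MHC class II-high muscles were 5 genes. Hsd17b7, an enzyme of cholesterol and sex steroid synthesis, was at 3.35 to 4.17 (median 3.85) in the high and 4.15 to 5.06 (median 4.55) in the low muscles, a difference of -0.79 log2 (SE 0.14, adjusted p = 0.026, limma). In 6 of 8 high muscles it lay below every low muscle. Ppp1r27, a regulatory subunit of protein phosphatase 1, differed by -0.92 (SE 0.18) and Ntmt2, a methyltransferase of protein N-termini, by -0.95 (SE 0.19), both at an adjusted p of 0.037. Ddit4l, an inhibitor of mTORC1 signalling in muscle, differed by -0.49 (SE 0.10, adjusted p = 0.037) on 1588 to 3682 reads, and the uncharacterised gene 1110002E22Rik by -0.43 (SE 0.09, adjusted p = 0.037).

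Few genes separated the 2 sets of muscles completely. In 7 genes (0.0793% of all tested) every high muscle exceeded every low muscle, and no gene showed the reverse. These were Tshz2, Plscr4, Arhgdib, Ncapd2, Abcg2, Flt3l and Stk38, of which the first 2 were among the 27. Tshz2 had its lowest high value at 5.04 and its highest low value at 4.92.

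The count of 27 depended on single muscles. It was 0 without thymol 28, without thymol 34 or without control 15, with smallest adjusted p of 0.057, 0.051 and 0.053 (limma) and 829, 921 and 903 genes at an unadjusted p under 0.05. It was 1 without thymol 20, 2 without thymol 3, 6 without control 10, 9 without thymol 21 or control 18, 10 without thymol 9, control 31 or control 35, and 11 without control 14. It rose to 55 without control 23, the last muscle inside the high set, and to 71 without thymol 24, and was 36 without thymol 6 and 26 without thymol 7. With control 18 and control 35 both left out, an alternative chosen after seeing the data, 2 genes passed, and 22 of 22 macrophage genes were still positive with a median of 0.75. Tmem176a was called in 13 of these 16 fits, Adap2 in 12, Clec3b, Ccl8 and Trim12a in 11, Hsd17b7 in 10 and C1qa in 9. The other 20 genes were called in 3 to 6 of the 16. With the number in the library name as a covariate, 0 genes passed (smallest adjusted p = 0.053, limma) and 909 had an unadjusted p under 0.05. These numbers ran from 64 to 84 in the high muscles (median 75.0) and from 61 to 83 in the low muscles (median 70.5), and their part in the result was not tested beyond that fit. Each of the 27 kept its sign in every alternative fit made, 911 of 911. These fits reuse muscles on which the 27 were called, so the kept sign is a description and not independent support.

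**Figure D5:**
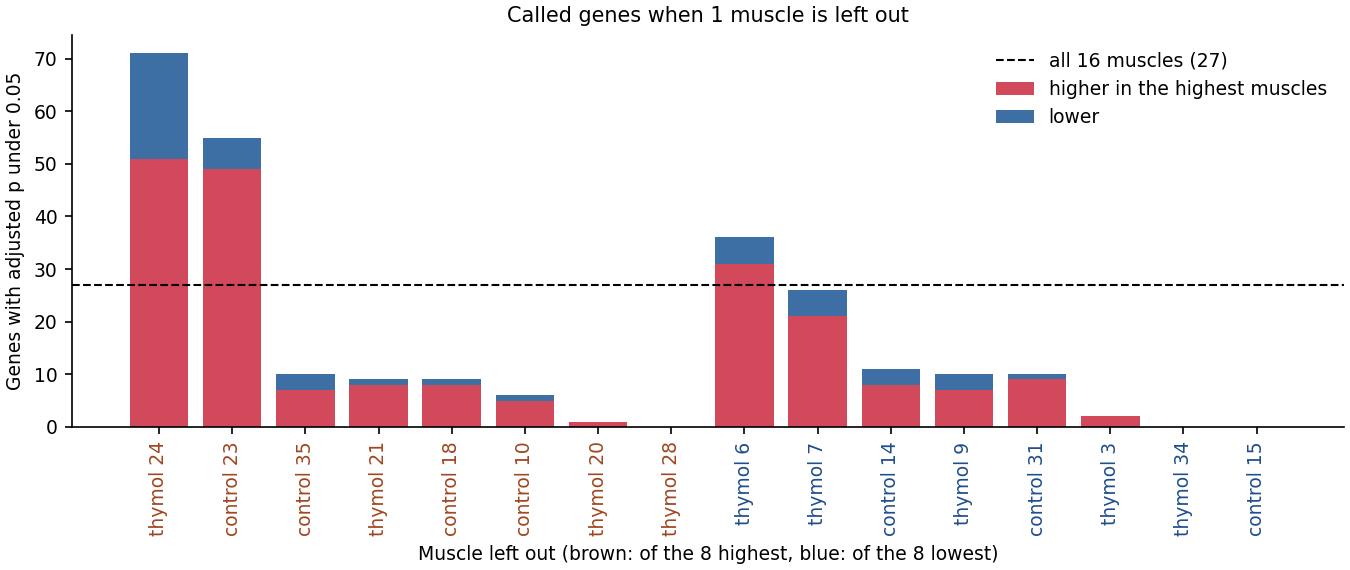
Number of genes with a limma adjusted p under 0.05 when 1 of the 16 muscles was left out, split into genes higher (red) and lower (blue) in the MHC class II-high muscles, with the count for all 16 (27) as a dashed line. Counts ran from 0 without thymol 28, thymol 34 or control 15 to 71 without thymol 24.

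A further question was whether the differences depended on treatment. The term for treatment by class II set passed the adjusted threshold in none of 8826 genes (0.0%, smallest adjusted p = 0.78, limma), with 336 genes at an unadjusted p under 0.05. Among the 27 genes B2m alone had an unadjusted interaction p under 0.05. Its interaction was -0.55 log2, which means a smaller class II difference among thymol muscles, and it did not pass adjustment. Of the 58 genes with values in the text, 3 had such a p, B2m, H2-K1 (-1.50 log2, unadjusted p = 0.0014, limma) and Cd163 (-1.07, unadjusted p = 0.029), each with a smaller difference among thymol muscles. Fitted in control muscles alone 4 genes were called, 1 of them among the 27. In thymol muscles alone 0 were called, with 593 at an unadjusted p under 0.05 and a smallest adjusted p of 0.061 (limma). The macrophage median was 0.97 log2 among control and 0.81 among thymol muscles, and the interferon median 0.62 and 0.34. These 4 values come from 7 control and 9 thymol muscles, and their differences were not tested.

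The class II level was also used as a covariate for thymol against control in all 25 muscles. None of 8826 genes passed the adjusted threshold with it (0.0%, smallest adjusted p = 0.91, limma) and 313 had an unadjusted p under 0.05. Without the covariate again 0 passed, with 312 at an unadjusted p under 0.05. For the TNF and NF-kB targets the median thymol minus control difference was -0.06 log2 without and -0.06 with the covariate, and for the immediate-early genes -0.26 and -0.27.

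Over all 25 muscles the genes whose levels most resembled the mean of the 3 ranking transcripts were H2-Eb1 (Pearson r = 0.89), Cybb (0.78), Ccl8, Adap2 and Laptm5 (each 0.77), C1qa (0.74), and Plscr4, Ifitm3, Pianp and Mpp1 (each 0.73). These correlations describe 25 libraries of 1 experiment, 16 of which also entered the comparison above, and carry no test. For H2-Eb1 r was 0.96 among 11 control and 0.80 among 14 thymol muscles, and for Cybb 0.72 and 0.92. The 9 intermediate muscles took no part in the choice of the 27 genes. Within these 9 muscles, whose class II means spanned only 4.10 to 4.49, 14 of the 22 higher genes correlated positively and 2 of the 5 lower genes negatively with the class II mean, beside 49.9% of all genes with a positive correlation.

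Depth was similar in both sets of muscles. Reads on the genes of the table ran between 4463818 and 9463418 per muscle, and the median was 8099041.5 in the MHC class II-high and 7501406.5 in the MHC class II-low muscles. Pairs of libraries correlated at 0.936 to 0.974 (Pearson r across genes), and no pair stood out as a repeated library.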

How the data were processed

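The muscles were profiled with QuantSeq 3′ mRNA sequencing, in which a read marks the 3′ end of a transcript. The authors aligned the reads with STAR 2.5.3 (GRCm38), obtained gene counts from HTSeq 0.6.1, filtered low genes, applied TMM scaling and deposited log2 CPM for 8829 gene symbols in 25 libraries, which were used here as deposited. Whole reads were recovered from the value steps (100.0% of values whole within 0.1 read), for depth and for 1 alternative fit. The log2 value of 0 reads was -1.90, found in 5 values. Reads carry no molecular identifiers, so copies of the same molecule cannot be told apart, and read numbers show counting error at its least.

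Columns were matched to mice by library name and treatment was taken from the sample titles. The 25 muscles were ranked on the mean log2 CPM of Cd74, H2-Aa and H2-Ab1. The 8 highest and 8 lowest were compared in limma 3.58.1 (R 4.3.3) with treatment as covariate, variances moderated along a trend, two-sided tests and p-values adjusted over 8826 genes after Benjamini-Hochberg (threshold 0.05). The design planned for log2 values was kept. Separate mice were the replicates. The fit was run on simulated data with the groups fixed in advance and each gene drawn independently. That run could not test the ranking step or the effect of correlation between genes.

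Named were, in either direction, the 10 called genes of smallest p and the list member of smallest p, a fixed set of 33 genes of which 9 were not in the table, and the 10 genes with the highest correlation with the ranking mean, and not all of them are reported here. Lists were written from general knowledge. The members and lists were chosen with earlier results of these data known. Alternatives were quantile normalization, median centring, a 75% filter on mean level, no treatment covariate, no trend, voom on recovered reads, library number as covariate, the first number of the sample title as a replicate block, 6 against 6 muscles, the ranking mean as a covariate, a ranking on scaled transcripts, adipocyte and erythroid covariates, each treatment alone and each muscle left out. Positions are from GENCODE M21 and promoters from RefSeq, both on GRCm38. Shared sequence was counted as 31-base words in the last 500 bases of transcripts. Figures used matplotlib 3.10.9 in Python 3.11.15 with numpy 2.4.6 and pandas 2.3.3.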

Additional observations from a re-analysis of the deposited data

Results flagged for a closer look

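In the 8 high or the 8 low muscles, 1 muscle stood far from the other 7 in 9 of 116 sets of values examined (58 genes, each in both sets of muscles), where chance gives about 1 in 20. The ranking mean and its 3 transcripts were left out, since they chose the muscles, and H2-Eb1 followed them closely. Each is listed with its value in log2 CPM and that of its nearest neighbour. Among the high muscles control 35 was highest for H2-Eb1 (6.04, next 4.70). Without control 35, H2-Eb1 differed by 0.85 log2 (limma, Benjamini-Hochberg adjusted p = 0.025). Thymol 24 was lowest for H2-DMa (1.24, next 2.0) and highest for Cox8b (9.09, next 8.93). Control 23 was lowest for Ctss (1.54, next 3.13). Thymol 20 was lowest for Myh7 (1.68, next 6.62). Thymol 28 was highest for Myl1 (12.8, next 10.7). Among the low muscles thymol 6 was highest for Ccl8 (3.51, next 1.60) and C1qb (4.50, next 3.66), and thymol 7 for B2m (7.89, next 7.41). No interaction of treatment and class II set passed the adjusted threshold for any gene in the text.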

How the results depend on the processing

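Among the 58 genes with values in the text, the 27 called ones kept their direction under every alternative run, although 3 fits that left out a muscle called none of them. The alternatives reuse the same muscles, so the kept direction is not independent support. The count of 27 moved to 15 with the 75% of genes highest in mean level, 4 without the variance trend, 5 with voom on recovered reads, 0 with the library number as a covariate, 73 with 6 against 6 muscles, 43 with the ranking mean over 25 muscles, 13 and 10 with the adipocyte and erythroid covariates, 4 in control and 0 in thymol muscles alone, and, chosen after seeing the data, 1 with the fibroblast covariate and 2 without control 18 and control 35. Leaving out 1 muscle gave 0 to 71. Treatment alone leaves fewer muscles, and the filter fewer genes. For the other shifts the cause was not tested. The count stayed within 1.5 times under quantile normalization (23), median centring (29), no treatment covariate (32) and the slow-fibre covariate (28). A ranking on scaled transcripts chose the same 16 muscles, so its 27 genes come from the same fit and not from a separate check. Taking the first title number as a replicate block called 27 genes, the same 27, and no call changed. That number was not shown to pair the mice. The interaction and the thymol comparison gave 0 called genes in every fit made, and the thymol differences of the 3 ranking genes kept their sign and side.

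Reversals occurred in 5 genes that were not called. Nfkb1 turned to -0.0164 under quantile normalization, -0.0012 under median centring, -0.0106 with the adipocyte, -0.0169 with the fibroblast covariate and -0.0403 without control 18 and control 35. Pecam1 turned to -0.0421 and -0.0042 under the last of these 2. Col1a1 turned to -0.2437 with the fibroblast and Myh7 to 0.25 with the slow-fibre covariate, which contain them. Pink1 turned to 0.0279 in control muscles alone and 0.0641 with the slow-fibre covariate. With 1 muscle left out, Nfkb1 ran from -0.0331 to 0.0902, Pecam1 ran from -0.0177 to 0.1052, Pink1 ran from -0.0998 to 0.0024. At about 7 to 50 reads per muscle, as for Ccl8, Trim12a, Laptm5 or H2-DMa in some muscles, counting error limits the values.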

Other observations

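Some genes had 2 separated levels across the 25 muscles. By a rule set after the values were seen (a gap wider than 50% of the range, with at least 4 muscles on each side and a range over 1.5 log2), 5 of 8829 genes did so: Myl1, Rpl34, Ppp1r1a, Vcp and Kbtbd12. Myl1, an essential light chain of fast-fibre myosin, was at 10.2 to 10.7 log2 CPM in 16 muscles and at 12.4 to 13.4 in the other 9, which were 1 MHC class II-high, 3 intermediate and 5 MHC class II-low muscles, 4 of them control and 5 thymol. The Myl1 difference between the high and low muscles was -1.19 log2 (adjusted p = 0.28, limma), and 18.4% of its transcript-end words occur in other loci. The gene that most resembled Myl1 over 25 muscles was Lancl1 (Pearson r = 0.83, next Nfil3 at 0.67), which lies 55.1 kb beyond it on chromosome 1. Rpl34, a ribosomal protein gene, was at -0.12 to 1.49 in 12 muscles and 6.14 to 7.27 in 13, of which 5 were high and 5 low. Ppp1r1a, an inhibitor of protein phosphatase 1, was at -0.40 to 1.32 and 4.62 to 5.41, the AAA ATPase Vcp at 1.23 to 3.36 and 6.29 to 6.79, and Kbtbd12 at 4.37 to 4.84 and 5.87 to 6.41. None of these 5 was called between the MHC class II-high and MHC class II-low muscles. Their levels were not tested further.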
